A study of Mus musculus with 12 samples.

Results

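The genes described here encode 10 transcription factors that decide which blood lineage an immature cell enters: Gata1, Gata2, Spi1, Cebpa, Ikzf1, Tal1, Runx1, Gfi1, Gfi1b and Fli1. They were chosen by name, with earlier results of these data known, and all 10 were measured among the 22180 genes of the arrays. Each has 1 probe set that carries its symbol alone. The cells were LSK cells, bone marrow cells sorted for the lack of lineage markers and for Sca1 and Kit, a fraction that holds blood stem cells and multipotent progenitors. They came from C57BL/6 mice in 4 groups of 3 arrays: Mll5-/- mice given NAC, wild-type (Mll5+/+) mice given NAC, Mll5-/- mice without NAC (mock) and wild-type mice without NAC (mock). NAC, N-acetyl-L-cysteine, is a quencher of reactive oxygen species, and it was supplied at 1 g per liter of drinking water from the mating of Mll5+/- parents onward. All groups were sorted directly from marrow without culture. The labels used here give neither the ages, nor the deleted part of Mll5, nor if each array stands for a mouse of its own, so every p-value measures only the spread between these arrays, which may be technical. RNA of a whole sorted fraction was measured, in which fewer cells of a type and less RNA per cell cannot be told apart.

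Values are log2 signals normalised by the authors, and a log2 difference is given as the named group minus its control. The arrays had medians of 2.89 to 2.96 and correlated with each other at 0.976 to 0.988 across genes. Mll5-/- NAC replicate 1 and wild-type mock replicate 1 had the lowest array weights, 0.54 and 0.71, where the others lay between 0.87 and 1.35. Values without them are given for some comparisons, and not for every one that differed without them. The probe set of Kmt2e, the current name of Mll5, read 7.02, 7.33 and 7.01 in Mll5-/- NAC arrays and 7.37, 7.78 and 7.50 in wild-type NAC arrays. It read 7.51, 7.38 and 6.93 in Mll5-/- mock arrays and 7.49, 7.39 and 7.68 in wild-type mock arrays, so the mock groups overlap. Which part of the gene the probe set reads is not given, and these values do not check the genotype. Of 11 LSK markers 10 were measured, and all 10 lay above the median gene level of 3.17, with Kit at a mean of 9.05 and Cd34 at 10.36 over the 12 arrays. Of 14 measured markers of mature cells 5 lay above it, S100a8, S100a9, Jchain, Nkg7 and Siglech.

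These factors work in networks. Runx1, Fli1, Tal1 and Gata2 act together at the enhancers of stem and progenitor cells, with Tal1 and the GATA factors held in a complex by Lmo2 and Ldb1. Gata1 takes the place of Gata2 as cells become red cells, and Gfi1b works beside it as a repressor. Spi1 (PU.1) and Cebpa drive granulocyte and monocyte genes, Spi1 and Gata1 oppose each other, Gfi1 restrains monocyte genes in favour of granulocytes, and Ikzf1 (Ikaros) prepares progenitors for the lymphoid lineages.

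The factors are known to bind each other's genes, so promoter windows of 3 of them are shown, those of Gfi1b, Tal1 and Runx1, all lower in each wild-type NAC array than in each wild-type mock array. Gata2 was lower there in the same way, but its 2 windows, which hold none of the letters searched, are not printed. The windows are RefSeq sequences of assembly GRCm38.p6 from 250 bases before to 50 bases after the start site, printed along the gene's strand. For Tal1 and Runx1, which have 2 windows each in the table, the upstream one is shown. The downstream window of each holds none of the letters searched, so all windows printed are ones with matches. Capitals mark what was searched on both strands: the letters AGATAA or else AGATAG or else TGATAA or else TGATAG for GATA factors, AGGAAG or else CGGAAG for ETS factors such as Spi1 and Fli1, TGTGGT or else TGCGGT for Runx1, CAGATG for Tal1, TTGCNNAA for Cebpa, and AAATCAC for Gfi1 and Gfi1b. The Gfi1b window lies at chr2:28621933-28622232 on the minus strand, the Tal1 window at chr4:115056176-115056475 on the plus strand and the Runx1 window at chr16:92826025-92826324 on the minus strand.
Gfi1b: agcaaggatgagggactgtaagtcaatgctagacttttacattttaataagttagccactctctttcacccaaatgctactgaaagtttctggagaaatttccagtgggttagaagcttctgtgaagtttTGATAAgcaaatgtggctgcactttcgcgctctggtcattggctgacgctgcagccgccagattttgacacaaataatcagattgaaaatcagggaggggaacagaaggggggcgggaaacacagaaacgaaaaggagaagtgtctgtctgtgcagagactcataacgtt
Tal1: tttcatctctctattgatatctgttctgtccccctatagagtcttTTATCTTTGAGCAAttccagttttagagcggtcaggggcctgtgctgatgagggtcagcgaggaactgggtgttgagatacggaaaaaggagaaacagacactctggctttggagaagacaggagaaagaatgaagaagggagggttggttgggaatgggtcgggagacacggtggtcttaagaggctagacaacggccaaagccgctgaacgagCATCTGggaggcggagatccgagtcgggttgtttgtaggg
Runx1: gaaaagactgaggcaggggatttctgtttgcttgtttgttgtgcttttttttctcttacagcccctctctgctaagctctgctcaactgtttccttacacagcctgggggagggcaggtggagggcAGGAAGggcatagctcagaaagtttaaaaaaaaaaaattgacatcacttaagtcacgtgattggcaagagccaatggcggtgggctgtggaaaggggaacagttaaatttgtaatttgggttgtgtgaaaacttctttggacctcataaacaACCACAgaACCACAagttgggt

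The Gfi1b window holds a GATA match at position -120. The Tal1 window holds a GATA match at -205 that adjoins a Cebpa match at -199, and a Tal1 match at 11. The Runx1 window holds an ETS match at -124 and Runx1 matches at 29 and 37. Over the 13 windows of the 8 members that the table lists, 2 hold GATA letters, 4 ETS letters, 1 Runx1 letters, 1 Tal1 letters, 2 Cebpa letters and 0 Gfi1 letters. Among all 32851 windows of the same length, 29.8% hold the GATA letters, 46.5% the ETS letters, 22.4% the Runx1 letters, 17.2% the Tal1 letters, 10.8% the Cebpa letters and 3.2% the Gfi1 letters. Both Gata2 windows hold none of them. No matches of different motifs overlapped in the member windows.

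No member of the 10 passed limma's test in any comparison, at an adjusted p of 0.05 over all genes. Between Mll5-/- and wild-type mock cells 0 of 10 passed (0.00902% of all genes did), and 0 of 10 had an unadjusted p under 0.05 (6.63% of all genes). Between Mll5-/- and wild-type NAC cells 0 of 10 passed (0.0% of all genes) and 1, Runx1, had an unadjusted p under 0.05 (7.17% of all genes). NAC against mock gave 0 of 10 calls in Mll5-/- cells (0.00451% of all genes), with 1 unadjusted p under 0.05, that of Runx1 (5.86% of all genes). In wild-type cells it gave 0 of 10 calls (0.00902% of all genes), with 2 such p-values, those of Gfi1b and Tal1 (5.92% of all genes). Over both treatments, 6 Mll5-/- against 6 wild-type arrays gave 0 of 10 calls (0.00902% of all genes) and 1 unadjusted p under 0.05, again of Runx1 (9.08% of all genes). Over both genotypes, 6 NAC against 6 mock arrays gave 0 of 10 calls (0.00451% of all genes) and 3 such p-values, of Runx1, Gfi1b and Gata2 (7.43% of all genes). The interaction, which asks whether the genotype difference was another in NAC than in mock, gave 0 of 10 calls (0.0% of all genes) and 0 unadjusted p under 0.05 (4.21% of all genes). The unadjusted counts depended on single arrays and settings, not only on the arrays of low weight, while 0 of 10 passed after adjustment in each case. Between genotypes in NAC the count of 1, from limma's unadjusted p of 0.0495 for Runx1, became 0 without any 1 of the Mll5-/- mock or wild-type NAC arrays. It also became 0 without wild-type mock replicate 1, with only the compared groups and with only genes above the median gene level. Over both treatments the genotype count of 1 became 0 without Mll5-/- mock replicate 2, wild-type mock replicate 3 or wild-type NAC replicate 1. Without Mll5-/- NAC replicate 1, Runx1 had an unadjusted p of 0.27 between genotypes in NAC and of 0.178 for NAC in Mll5-/- cells, and Gata1 (0.0137), Gata2 (0.00414) and Tal1 (0.0487) came under 0.05 between genotypes in NAC, 3 in place of 1. Without it the genotype over both treatments had 2 such p-values, of Gata1 (0.0115) and Gata2 (0.00695), and no longer that of Runx1. Without both arrays NAC in wild-type cells had 4 such p-values in place of 2, those of Gfi1b, Tal1, Gata2 and Cebpa. A test that finds no call does not show equal levels: limma's 95% intervals of the members' differences reached from -0.73 to 0.99 between genotypes in mock and from -1.03 to 0.90 between NAC and mock in wild type.

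**Figure D1:**
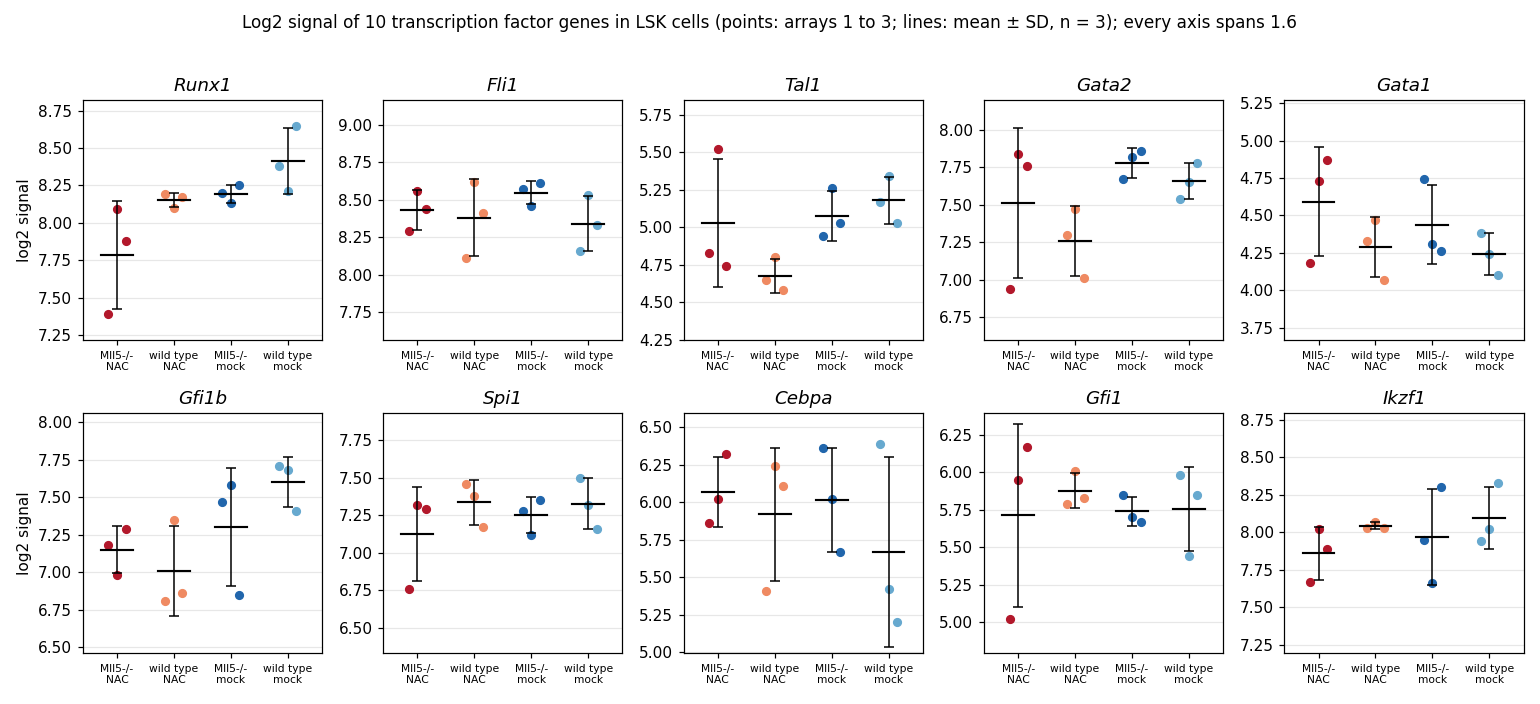
Log2 signal (y axis, every panel spanning 1.6 log2 units) of the 10 transcription factor genes on 12 arrays, with points for arrays, horizontal lines for group means and bars for SD (n = 3). Runx1 has its lowest array, 7.39, among the Mll5-/- NAC arrays, and all 3 wild-type NAC arrays of Tal1 lie at or below 4.80, under all 3 wild-type mock arrays.

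Runx1, the core-binding factor that definitive blood stem cells need in order to arise, read 7.39, 8.09 and 7.88 in Mll5-/- NAC arrays and 8.19, 8.10 and 8.17 in wild-type NAC arrays. It read 8.20, 8.13 and 8.25 in Mll5-/- mock arrays and 8.38, 8.21 and 8.65 in wild-type mock arrays. The Mll5-/- NAC arrays were thus the lowest of each pairing: all 3 lay below the wild-type NAC arrays and below the Mll5-/- mock arrays. The gaps were narrow, with 8.09 as the highest Mll5-/- NAC array beside 8.10 in wild-type NAC and 8.13 in Mll5-/- mock. The group means were 7.79 ± 0.36 in Mll5-/- NAC, 8.15 ± 0.05 in wild-type NAC, 8.19 ± 0.06 in Mll5-/- mock and 8.41 ± 0.22 in wild-type mock cells (SD, n = 3). The Mll5-/- mock arrays overlapped those of both wild-type groups. The log2 difference between genotypes was -0.29 over both treatments (SE 0.12, 95% interval -0.55 to -0.04, limma adjusted p = 0.492), made up of -0.37 in NAC (adjusted p = 0.695) and -0.22 in mock (adjusted p = 0.857). NAC against mock gave -0.41 in Mll5-/- cells (SE 0.17, adjusted p = 0.829) and -0.26 in wild-type cells (SE 0.17, adjusted p = 0.886), comparisons that share the mock or NAC arrays of the ones before. Without Mll5-/- NAC replicate 1 the genotype difference in NAC was -0.17 the NAC difference in Mll5-/- cells -0.21 and the genotype difference over both treatments -0.19 (SE 0.10, adjusted p = 0.6), all smaller in size.

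Fli1, an ETS factor of megakaryocytes and stem cells, read 8.29, 8.56 and 8.44 in Mll5-/- NAC arrays and 8.11, 8.62 and 8.41 in wild-type NAC arrays. In mock it read 8.57, 8.46 and 8.61 in Mll5-/- and 8.16, 8.53 and 8.33 in wild-type arrays. The 4 groups overlapped throughout, and the range of their means, 0.21, was close to the SD within groups, 0.18. The log2 difference between genotypes over both treatments was 0.13 (SE 0.11, 95% interval -0.10 to 0.36, limma adjusted p = 0.759).

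Tal1, the basic helix-loop-helix factor of stem cells and the red cell line, read 4.83, 5.52 and 4.74 in Mll5-/- NAC arrays, against 4.94, 5.26 and 5.03 in Mll5-/- mock arrays. In wild type it read 4.65, 4.80 and 4.58 with NAC, against 5.17, 5.34 and 5.03 in mock. The wild-type groups were separate, while in Mll5-/- cells the NAC arrays lay on both sides of the mock arrays. NAC against mock gave a log2 difference of -0.50 in wild-type cells (SE 0.19, 95% interval -0.91 to -0.10, limma adjusted p = 0.774) and of -0.05 in Mll5-/- cells (SE 0.19, adjusted p = 0.991), comparisons that share no array. The interaction was 0.46 (SE 0.27, adjusted p = 0.999), so a NAC difference that depends on the genotype was not shown. Between genotypes the difference was 0.35 in NAC and -0.10 in mock. Without Mll5-/- NAC replicate 2, the highest array of its group, the genotype difference in NAC was 0.11 and the interaction 0.21.

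Gata2, which keeps stem and progenitor cells from maturing, read 6.94, 7.84 and 7.76 in Mll5-/- NAC arrays, against 7.67, 7.82 and 7.86 in Mll5-/- mock arrays. In wild type it read 7.30, 7.47 and 7.01 with NAC, against 7.54, 7.65 and 7.78 in mock. The wild-type NAC arrays all lay below the wild-type mock arrays, and of the Mll5-/- NAC arrays replicate 1 alone lay below all mock arrays. NAC against mock gave a log2 difference of -0.40 in wild-type cells (SE 0.21, 95% interval -0.85 to 0.05, limma adjusted p = 0.872) and of -0.27 in Mll5-/- cells (SE 0.21, adjusted p = 0.933). Without Mll5-/- NAC replicate 1 the difference in Mll5-/- cells was 0.02 (SE 0.15), and that between genotypes in NAC was 0.54 (SE 0.15, adjusted p = 0.723) in place of 0.25 (SE 0.21, adjusted p = 0.840). The interaction was 0.13 with all arrays, 0.41 without that array and 0.47 without both arrays of low weight, and did not pass.

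Gata1, the master factor of red cells and megakaryocytes, read 4.18, 4.73 and 4.87 in Mll5-/- NAC arrays and 4.33, 4.47 and 4.07 in wild-type NAC arrays. In mock it read 4.74, 4.31 and 4.26 in Mll5-/- and 4.38, 4.24 and 4.10 in wild-type arrays. Mll5-/- means were above wild-type means in both treatments, with overlapping arrays. The log2 difference between genotypes was 0.25 over both treatments (SE 0.14, 95% interval -0.04 to 0.54, limma adjusted p = 0.609), and 0.35 (SE 0.12, adjusted p = 0.451) without Mll5-/- NAC replicate 1. In NAC alone it was 0.30 (SE 0.19, adjusted p = 0.791), and 0.51 (SE 0.18, adjusted p = 0.775) without that array.

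Gfi1b, a zinc finger repressor that red cells and platelets need, read 7.18, 6.98 and 7.29 in Mll5-/- NAC arrays, against 7.47, 7.58 and 6.85 in Mll5-/- mock arrays. In wild type it read 6.81, 7.35 and 6.86 with NAC, against 7.71, 7.68 and 7.41 in mock. The wild-type groups were separate by a narrow gap, and the Mll5-/- groups overlapped because of mock replicate 3. The wild-type NAC difference of -0.59 (SE 0.20, 95% interval -1.03 to -0.16, limma adjusted p = 0.719) was the largest in size of the 70 differences computed for the members, a 1.51-fold lower signal. In Mll5-/- cells it was -0.15 (SE 0.20, adjusted p = 0.963), and the interaction of 0.44 (SE 0.28, adjusted p = 0.999) did not pass. Without Mll5-/- mock replicate 3 the interaction was 0.22.

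**Figure D2:**
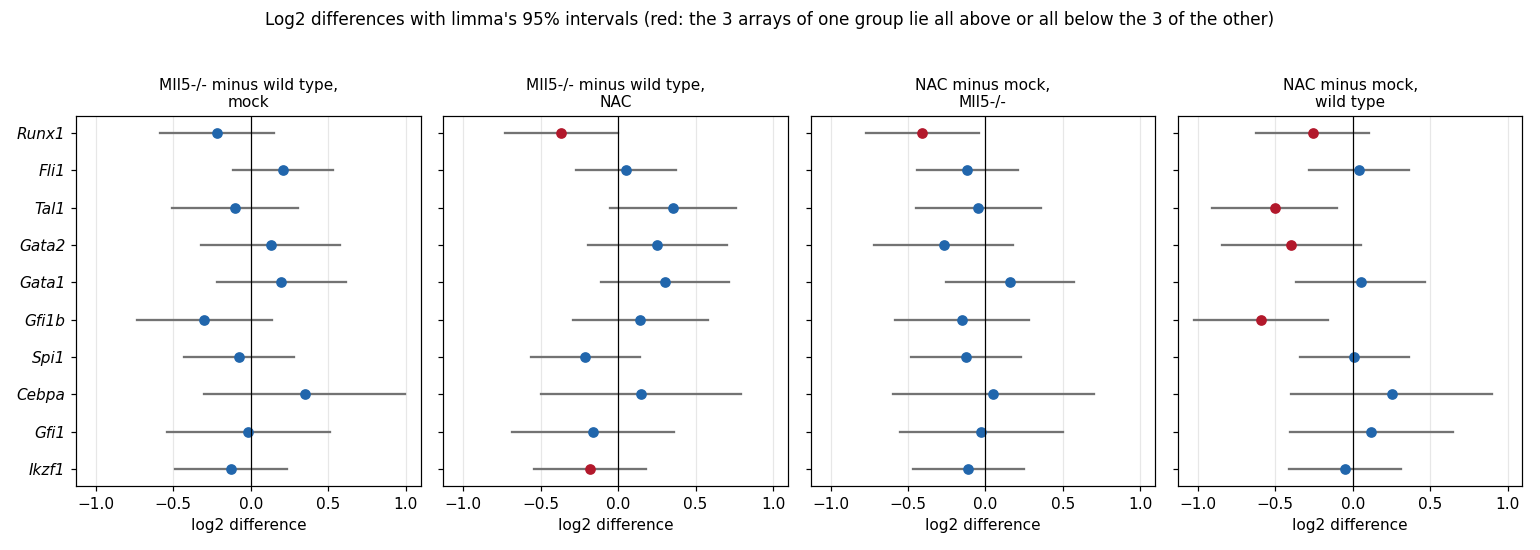
Log2 differences (x axis, points) of the 10 genes in 4 comparisons with limma's 95% intervals (lines), red where the 3 arrays of one group lie all above or all below the 3 of the other. The wild-type NAC panel holds 4 red points, all below 0. Intervals are per gene and not adjusted over all genes. Those of Gfi1b and Tal1 in that panel do not cross 0, while neither gene passed (limma adjusted p = 0.719 and 0.774).

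Spi1, the ETS factor of myeloid and B cells, read 6.76, 7.32 and 7.29 in Mll5-/- NAC arrays and 7.46, 7.38 and 7.17 in wild-type NAC arrays. In mock it read 7.28, 7.12 and 7.35 in Mll5-/- and 7.50, 7.32 and 7.16 in wild-type arrays. Apart from Mll5-/- NAC replicate 1, all arrays lay between 7.12 and 7.50. The log2 difference between genotypes over both treatments was -0.15 (SE 0.12, 95% interval -0.39 to 0.10, limma adjusted p = 0.748), and -0.05 without that array.

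Cebpa, which opens the granulocyte and monocyte programme, read 5.86, 6.02 and 6.32 in Mll5-/- NAC arrays and 5.41, 6.24 and 6.11 in wild-type NAC arrays. In mock it read 6.36, 6.02 and 5.67 in Mll5-/- and 6.39, 5.42 and 5.20 in wild-type arrays. It had the widest SD within groups of the 10 genes, 0.44 on the log2 scale, and wild-type mock replicate 1 lay far above the other arrays of its group. Between genotypes in mock the log2 difference was 0.35 (SE 0.30, 95% interval -0.30 to 0.99, limma adjusted p = 0.875), and 0.71 (SE 0.26, adjusted p = 0.662) without both arrays of low weight. NAC against mock in wild type gave 0.25 (SE 0.30), and 0.61 (SE 0.26, adjusted p = 0.638) without them. Without wild-type mock replicate 3 these differences were 0.11 and 0.02.

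Gfi1, a repressor that granulocytes need and that limits the cycling of stem cells, read 5.02, 5.95 and 6.17 in Mll5-/- NAC arrays and 5.79, 6.01 and 5.83 in wild-type NAC arrays. In mock it read 5.85, 5.70 and 5.67 in Mll5-/- and 5.98, 5.44 and 5.85 in wild-type arrays. Its lowest and highest arrays were in the same group, and the 4 means lay within 0.16 of each other. The genotype difference in NAC was -0.16 (SE 0.24, limma adjusted p = 0.933), and 0.18 (SE 0.17, adjusted p = 0.920) without Mll5-/- NAC replicate 1, so 1 array set its sign. NAC against mock in Mll5-/- cells gave -0.03 (SE 0.24), and 0.32 (SE 0.17, adjusted p = 0.997) without that array.

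Ikzf1, which readies progenitors for the lymphoid lines, read 7.67, 8.02 and 7.89 in Mll5-/- NAC arrays and 8.03, 8.07 and 8.03 in wild-type NAC arrays. In mock it read 7.95, 7.66 and 8.30 in Mll5-/- and 7.94, 8.02 and 8.33 in wild-type arrays. The NAC groups were separate by 0.01 between their nearest arrays, and the mock groups overlapped. The log2 difference over both treatments was -0.16 (SE 0.12, 95% interval -0.41 to 0.10, limma adjusted p = 0.734).

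Groups of 3 arrays that do not overlap were counted for all members. Between Mll5-/- and wild-type mock cells this held for 0 of 10 members (11.4% of all genes), and between Mll5-/- and wild-type NAC cells for 2 of 10, Runx1 and Ikzf1, both lower in Mll5-/- (12.4% of all genes). For NAC against mock it held for 1 of 10 in Mll5-/- cells, Runx1 (10.2% of all genes), and for 4 of 10 in wild-type cells (10.7% of all genes). Those 4 were Gfi1b, Tal1, Gata2 and Runx1, all lower with NAC. Of 6 against 6 arrays no member was separate, 0 of 10 for the genotype (0.546% of all genes) and 0 of 10 for NAC (0.338% of all genes). The comparisons share arrays, so their counts are not independent of each other. LSK markers lay on the same side with NAC: all 10 had a negative log2 difference in wild-type cells, with a median of -0.19 and 0 called, and 7 of 10 in Mll5-/- cells, where 1 was at zero, with a median of -0.35 and 0 called. Their mean level per array spanned 6.54 to 6.83 in Mll5-/- NAC, 6.62 to 6.84 in wild-type NAC, 6.89 to 7.07 in Mll5-/- mock and 6.70 to 7.10 in wild-type mock arrays. Their part in the members' differences was not tested. The members themselves had a median difference of -0.02 in wild-type and -0.11 in Mll5-/- cells, beside -0.003 and 0.0 over all genes.

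Runx1, Gata2, Spi1 and Gfi1, 4 of the 10 members, had their lowest value of all 12 arrays on Mll5-/- NAC replicate 1, where 13.5% of all genes had theirs. Across the 12 arrays, a description of these arrays that shares their normalisation, the highest correlations between members were those of Ikzf1 with Runx1 (r = 0.70), Spi1 with Gfi1 (r = 0.70), Gata2 with Tal1 (r = 0.64) and Spi1 with Runx1 (r = 0.61). The lowest was that of Cebpa with Ikzf1 (r = -0.46). Over the 45 pairs and all 12 arrays the median r was 0.21, and 35 were above 0. Both the median and the count were lower without Mll5-/- NAC replicate 1. With group means removed, the r of Spi1 with Gata1 was 0.79 and that of Runx1 with Gfi1 0.77. Without Mll5-/- NAC replicate 1 these were 0.55 and 0.25. As measured, without that array, Spi1 with Gfi1 had r = 0.17 and Spi1 with Runx1 r = -0.07, while Ikzf1 with Runx1 kept 0.57, Gata2 with Tal1 0.68 and Cebpa with Ikzf1 -0.56. The lowest was then Gata1 with Runx1 (r = -0.64, and -0.18 on 12 arrays). Cebpa with Gfi1 had r = 0.615 then, and 0.415 on 12 arrays.

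**Figure D3:**
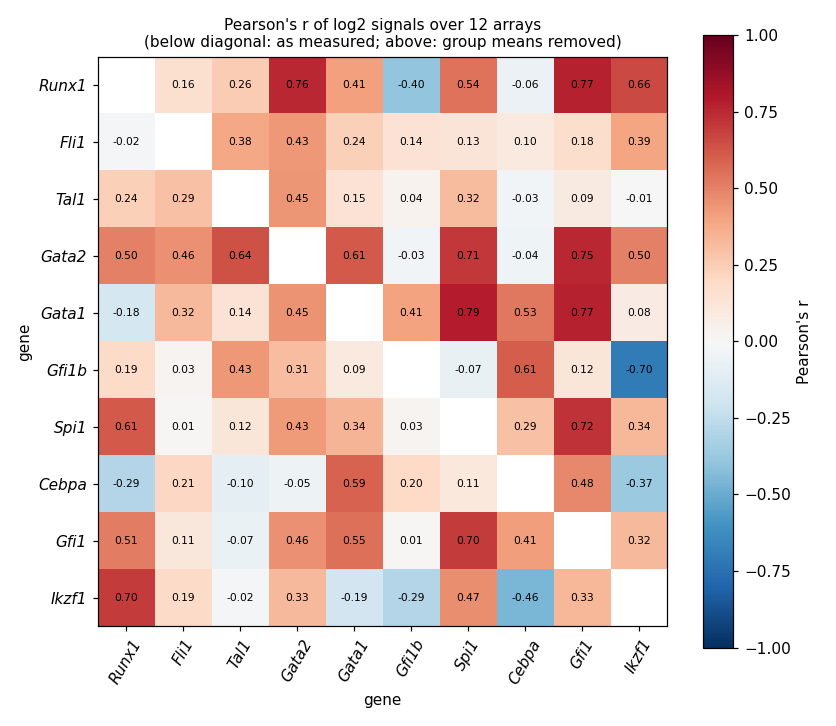
Pearson's r of log2 signals between pairs of the 10 genes over 12 arrays, as measured below the diagonal and with group means removed above it. Spi1 with Gata1 (0.79) and Runx1 with Gfi1 (0.77) are among the highest values above the diagonal, and Ikzf1 with Gfi1b (-0.70) is the lowest.

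For each member the genes of most similar pattern were sought among 11087 others above the median gene level, by Pearson's r over the 12 arrays. Values picked as the highest of so many correlations on 12 arrays can be high between unrelated genes. What unrelated genes give here was not tested. Runx1 was most like Nr4a1, an orphan nuclear receptor of the immediate early response (r = 0.96), and Leng8 (r = 0.96), and 4.52% of the genes compared had an r over 0.7 with it. Gata1 was most like Rtn4r (r = 0.95), Spi1 like Plcg2, a phospholipase of immune receptor signalling (r = 0.93), and Gfi1 like Kmt2d, a histone H3 lysine methyltransferase (r = 0.93). Ikzf1 was most like Lsp1, an actin-binding protein of leukocytes (r = 0.89), Fli1 like Gm5093 (r = 0.91), Gata2 like Git2 (r = 0.90), Cebpa like Gid4 (r = 0.90) and Tal1 like Tspan17 (r = 0.89). Gfi1b had the least similar neighbours, Smad1 (r = 0.82) and Zbtb44 (r = 0.82), and 0.451% of genes with an r over 0.7. Without Mll5-/- NAC replicate 1, a choice made after seeing the data, Spi1 with Plcg2 had r = 0.79, Gfi1 with Kmt2d r = 0.81 and Runx1 with Nr4a1 r = 0.90.

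Relatives of the members in the same protein families, their partners and genes of the lineages they act in were read from lists. The lineage genes are called targets here, and whether a member controls any of them in these cells was not tested. Higher and lower stand for the sign of a difference and not for a call. Of 19 measured relatives 0 passed limma's test between genotypes over both treatments, with 6 higher, 13 lower and a median log2 difference of -0.09, beside 0.003 over all genes. Ets1, the ETS factor of lymphocytes, had the largest difference, -0.57 (SE 0.11, adjusted p = 0.129), with means of 4.65 ± 0.23 in Mll5-/- NAC, 5.26 ± 0.21 in wild-type NAC, 4.80 ± 0.21 in Mll5-/- mock and 5.34 ± 0.06 in wild-type mock cells (SD, n = 3). Cebpe, of late granulocyte maturation, differed by -0.43 (SE 0.21, adjusted p = 0.566). In NAC against mock in Mll5-/- cells, Spib, a close relative of Spi1 in B and dendritic cells, differed by 0.81 (SE 0.13, adjusted p = 0.184), with means of 3.10 ± 0.16 in Mll5-/- NAC and 2.29 ± 0.15 in Mll5-/- mock cells (SD, n = 3), both under the median gene level. Of 19 measured partners and cofactors 0 passed between genotypes, with 9 higher and 10 lower (median -0.03). Cbfb, the partner that Runx1 binds DNA with, differed by 0.35 (SE 0.11, adjusted p = 0.337) where Runx1 itself differed by -0.29. Hdac2, a histone deacetylase, differed by 0.31 (SE 0.08, adjusted p = 0.289), and Cbfa2t3, a corepressor of the Tal1 complex, by -0.44 (SE 0.15, adjusted p = 0.388). Lmo2 and Ldb1, the bridge of that complex, had differences of -0.36 (SE 0.21) and -0.32 (SE 0.14) with NAC in Mll5-/- cells, with adjusted p = 0.897 and 0.834.

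Target genes were counted for the genotype over both treatments. All lists used here were chosen with earlier results of these data known, so their counts of higher and lower genes are a description only. Of 11 measured erythroid targets 0 passed, with 8 higher and a median of 0.14, and Ermap (0.52, SE 0.22) and Car1, a carbonic anhydrase (0.41, SE 0.34), had the largest differences. Of 14 measured megakaryocyte targets 12 were higher and 2 lower, with a median of 0.20 and 1 call, Selp, the platelet adhesion molecule P-selectin (1.48, SE 0.19, limma adjusted p = 0.0269). Selp averaged 6.50 ± 0.54 in Mll5-/- NAC, 5.03 ± 0.30 in wild-type NAC, 6.26 ± 0.42 in Mll5-/- mock and 4.78 ± 0.11 in wild-type mock cells (SD, n = 3). The call of Selp ended without any 1 of 9 arrays, with adjusted p from 0.0751 to 0.136, and with the replicate block (adjusted p = 0.0733), and held without Mll5-/- mock replicate 3, Mll5-/- NAC replicate 1 or wild-type NAC replicate 3. Fli1, Gata1 and Runx1, which act on such genes, had differences of 0.13, 0.25 and -0.29 in the same comparison and did not pass. Of 15 measured lymphoid targets all 15 were lower, with a median of -0.38 and 0 calls, led by Dntt, the template-free polymerase of antigen receptor genes (-1.11, SE 0.22, adjusted p = 0.129). Of these 15 genes, 12 had a mean above the median gene level. Dntt passed without Mll5-/- mock replicate 3 (adjusted p = 0.0237). Blnk, a linker protein of B cells, passed between genotypes in NAC with array weights (adjusted p = 0.038), above the median gene level (0.0412), without wild-type NAC replicate 2 (0.0258) and without wild-type mock replicate 3 (0.0379). With all arrays and settings as described it did not pass there (-1.43, SE 0.19, adjusted p = 0.068), and 4 of 20 alternatives called it. Beside them Ikzf1 differed by -0.16. Of 16 measured granulocyte and monocyte targets 0 passed, with 5 higher, 10 lower, 1 at zero and a median of -0.05. Elane, neutrophil elastase, differed by -0.64 (SE 0.33), where Cebpa differed by 0.25 and Spi1 by -0.15. Of 12 measured mast cell, basophil and eosinophil targets 0 passed, with 5 higher, 6 lower, 1 at zero and a median of -0.02.

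With NAC in Mll5-/- cells, granulocyte and monocyte targets had a median log2 difference of 0.26, with 10 of 16 higher and 0 called. Spi1, Cebpa and Gfi1 differed there by -0.13, 0.05 and -0.03. Without Mll5-/- NAC replicate 1 the differences of these factors were 0.055, 0.153 and 0.32, all positive, and none passed. In wild-type cells the median of the granulocyte and monocyte targets was 0.33, with 13 of 16 higher and 0 called. Ms4a3, a gene of granulocyte and monocyte progenitors, differed by 1.42 (SE 0.43, adjusted p = 0.749) in Mll5-/- cells. Among 14 measured mature cell markers, Jchain, S100a9 and S100a8 had the largest differences in 2 comparisons, and 0 passed. With NAC in Mll5-/- cells S100a9, a neutrophil protein, differed by 0.97 (limma adjusted p = 0.778) and Jchain by 2.01 (adjusted p = 0.749). Between genotypes over both treatments S100a9 differed by -1.19 (adjusted p = 0.129) and Jchain by -2.78 (adjusted p = 0.0597). There 12 of 14 were lower, with a median of -0.18, and the next largest was Klrb1c at -0.28. The other neutrophil markers Ly6g, Ngp, Camp and Ltf differed there by -0.26, -0.08, -0.18 and -0.03. Jchain, a chain of secreted antibodies, passed between genotypes over both treatments without Mll5-/- NAC replicate 1 (adjusted p = 0.00809), without both arrays of low weight (adjusted p = 0.0389) and with array weights (adjusted p = 0.0447), between genotypes in mock with only the compared groups (adjusted p = 0.011), and for NAC over both genotypes without Mll5-/- NAC replicate 3 (adjusted p = 0.0431). The mean level of the 14 measured mature cell markers spanned 3.74 to 3.81 in Mll5-/- NAC arrays, 4.15 to 4.23 in wild-type NAC arrays, 3.27 to 3.47 in Mll5-/- mock arrays and 3.78 to 4.08 in wild-type mock arrays. That mean includes Jchain, S100a9 and S100a8, so it does not show a shift of all these markers. The B cell marker Ms4a1, the T cell markers Cd3e and Cd3d and the neutrophil markers Ly6g, Ngp, Camp and Ltf lay under the median gene level. The part of such cells in the values of Spi1, Cebpa, Gfi1 and Ikzf1 was not tested.

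**Figure D4:**
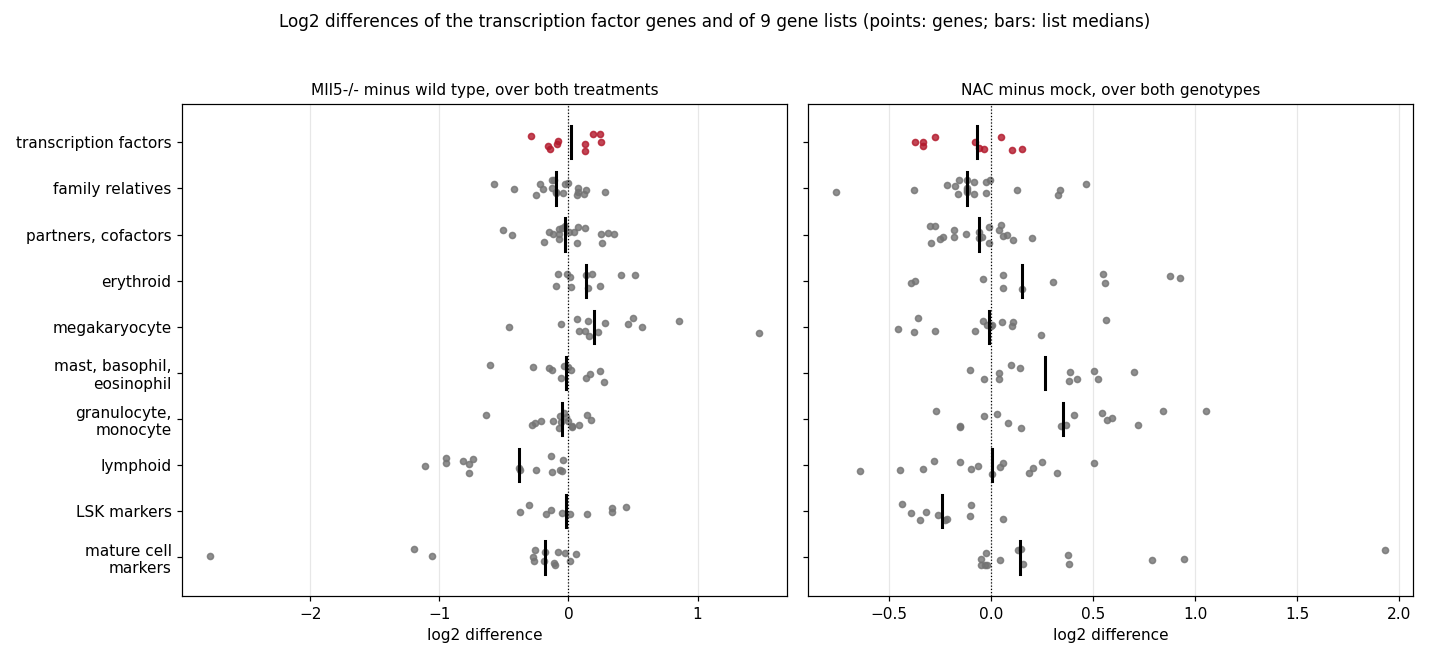
Log2 differences (x axis) of the 10 transcription factor genes (red) and of the genes of 9 lists (grey), with list medians as bars, between genotypes on the left and between NAC and mock on the right. The transcription factors stay within -0.37 and 0.25 in both panels, while lymphoid targets have a median of -0.38 on the left and granulocyte and monocyte targets one of 0.35 on the right.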

How the data were processed

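Total RNA of sorted LSK cells was labelled with biotin and hybridised to 12 arrays, 3 per group. The authors deposited log2 signals per probe set, made with Affymetrix Power Tools and RMA (background correction, quantile normalisation, summary per probe set), per the submitters' processing notes. No version or build was found in those notes. That the logarithm has base 2 was judged by the lowest and highest values, 0.74 and 13.23. Among the 41345 probe sets 23521 had 1 gene symbol and 1814 several; for each of 22180 symbols the brightest by mean over 12 arrays was kept. Of the single-symbol probe sets 23328 matched RefSeq GRCm38.p6 by gene ID.

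limma 3.58.1 in R 4.3.3 fitted a mean per group to all genes and 12 arrays (lmFit, eBayes), with Benjamini-Hochberg adjustment over all genes in each of 7 comparisons, at 0.05. The median SE was 0.16 between groups and 0.12 over both treatments. Precision is limited by how many arrays there are. The labels do not say whether the replicate numbers of the titles pair the arrays. Deviations of same-numbered arrays correlated at -0.06 to 0.06, and those of arrays with other numbers at -0.08 to 0.07. The main fit therefore used no block, though such correlations cannot show that the arrays are unpaired. Tried as alternatives were a filter at the median gene level, array weights, a fresh quantile normalisation, a robust fit with a variance trend, averaging all probe sets of a symbol, the replicate block, only the compared groups, leaving out both arrays of low weight, and leaving out each array in turn.

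Tested on simulated data with 200 changed genes among 22180, the fit found 73% of log2 changes of 1 and 0% of changes of 0.5 between mock groups, and 91.3% and 37.2% over both treatments. Over 3 simulations each, false calls numbered 20 and 0 between mock groups, and 30 and 18 over both treatments. The simulated noise was independent between genes and equal for all arrays, whereas the real arrays had weights of 0.54 to 1.35, so these shares may not hold for them.

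The members and lists were chosen with earlier results of these data known. Named were the 10 members, Kmt2e, from each list up to 4 genes of the largest genotype difference over both treatments and up to 3 of the largest NAC difference in Mll5-/- cells, and for each member the 2 most correlated genes. Markers named only as levels were singled out afterwards. Python 3.11.15 with matplotlib 3.10.9 drew the figures.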

Additional observations from a re-analysis of the deposited data

How the results depend on the processing

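The count of 0 members called held in all 7 comparisons under every alternative that was run, with a lowest adjusted p of 0.374 among them. The sign of a member's difference turned in 69 of 1370 values. A fit of only the compared groups was not possible for the comparisons over both treatments, over both genotypes and for the interaction. Calls over all genes depended more on the settings. Between genotypes in mock they numbered 2, and 1 with the replicate block, 1 with only the compared groups and 0 without both arrays of low weight. Between genotypes in NAC they numbered 0, and 2 above the median gene level, 4 with array weights and 1 with only the compared groups. For NAC in Mll5-/- cells they numbered 1, and 2 with array weights, 2 after a fresh quantile normalisation and 0 without both arrays. For NAC in wild type they numbered 2, and 1 with only the compared groups. Over both treatments the genotype gave 2, and 4 with array weights, 1 with the replicate block and 4 without both arrays. Over both genotypes NAC gave 1, and 3 without both arrays. Leaving out 1 array gave 1 to 4 calls for the genotype in mock, 0 to 3 in NAC, 0 to 2 for NAC in Mll5-/-, 1 to 5 for NAC in wild type, 1 to 7 for the genotype over both treatments, 1 to 4 for NAC over both genotypes and 0 to 2 for the interaction. The cause was not tested. With 3 arrays a group, 0% of simulated differences of 0.5 were found between mock groups, under noise equal for all arrays. The replicate block changed no member's call and ended that of Selp (adjusted p = 0.0733).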
